A study of Mus musculus with 26 samples.

Results

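The germ cells of the mouse fetal ovary at E13.5 (E for embryonic day, with E0.5 the day of the vaginal plug) were described from single-cell counts of unique molecular identifiers (UMIs), each of which stands for 1 captured mRNA molecule. Members were the cells named E13.5 in the count table that had been sorted into the gate named BVSC, after the 2 germ cell reporters, and that held Anxa5, a transcript typical of somatic cells, below 100 CPM. CPM here is a gene's UMIs per 1000000 UMIs of the 16344 genes read. Of 188 cells at E13.5, 155 were in the gate and 147 were members, out of 1881 cells in the whole series. Library 3 gave 58 members and library 10 gave 89. They were set beside 140 cells of E12.5 (libraries 8 and 9, 70 cells each) and 275 cells of E14.5 (libraries 4, 5, 12 and 14, with 31, 60, 93 and 91 cells), chosen in the same way.

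All groups came from female fetuses, marked WT in the cell names, with no treatment beyond dissociation, of BVSC transgenic mice, which carry a Blimp1-mVenus and a Stella-ECFP reporter. The genes behind the reporters are Prdm1 (Blimp1) and Dppa3 (Stella), and their levels are therefore part of how the cells were sorted. Gonads of several embryos were pooled per stage and dissociated with trypsin, and single cells were picked by mouth pipette after the sort and read from their 3′ ends. Nothing in the labels assigns the libraries of 1 stage to different animals, and the p-values below therefore reflect library-to-library spread that could be technical.

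Primordial germ cells settle in the gonad and go on dividing under a pluripotency-related programme led by factors such as Nanog, Sox2, Prdm14 and Tfap2c. In the fetal ovary, retinoic acid and bone morphogenetic protein (BMP) signals then induce Stra8, whose product acts with MEIOSIN (Gm4969 in these files) to start the meiotic gene programme. Chromosome axes, the synaptonemal complex and the recombination machinery are built after that, while oocyte factors such as Figla come up.

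The label was set beside marker levels. Dppa3, which is read by the sort itself and so is no independent check, was at 780 CPM or more in the members of library 3 and at 1047 CPM or more in those of library 10, against a median of 175 CPM in 31 cells of library 3 from the gate named Negative. No member reached 100 CPM of Wt1, a transcription factor of gonadal somatic cells. Anxa5 set the members, so its levels are no check of the label and only show where the limit fell. Of the 155 gated cells, 93 had no Anxa5 UMI. The highest members had 48.19, 51.5 and 57.7 CPM, and the lowest of the 8 cells left out had 104.12 CPM. All 8 cells left out held a Dppa3 UMI. Members had a median of 304426 UMIs (10016 to 788439) and 8766 detected genes (2438 to 11061) in the deposited cell table. The genes read, which cover chromosomes 1 to 7, 10, X and part of 8, held a median of 51.2% of a cell's UMIs. Genes elsewhere, such as Pou5f1, Ddx4 and Dazl, were not analysed here. The 2 libraries shared 54 barcode numbers, and no 2 cells held the same counts.

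Transcripts of other cell types differed in level between the libraries. The summed level of the 7 supporting and early gonadal somatic markers was 69.4 CPM in library 3 and 10.8 CPM in library 10, against 21.4 and 21.2 CPM at E12.5, 30.4 to 89.5 CPM at E14.5 and 3334 CPM in the 31 cells of library 3 from the gate named Negative. The 6 stroma markers summed to 28.2 and 2.76 CPM, with Tcf21, Dcn and Col1a2 at 0 in library 10. Of the 6 macrophage markers, C1qa, C1qb, C1qc and Lyz2 were at 0 in both E13.5 libraries, but the list as a whole was not. In library 3 Fcer1g was at 0 too, and Tyrobp alone made up the sum of 13.7 CPM. In library 10 Fcer1g and Tyrobp were both above 0, and their sum was higher than in library 3. The embryonic globin Hbb-y was at 0 in library 3 and in 2 of 89 cells of library 10, while all 70 cells of library 8 at E12.5 held it. The 5 red blood cell markers summed to 23.6 and 102 CPM at E13.5 and the 5 endothelial markers to 25 and 68.3 CPM, with Tie1 at 0 in both. The part of these transcripts in the stage differences was not tested.

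The genes given as markers of the stage were Sct (secretin, a peptide hormone), Dusp9 (a phosphatase that removes activating phosphates from MAP kinases), Gata2 (a zinc finger transcription factor induced by BMP signals) and Dapl1. They were chosen on these cells, so their values are a description without a test. Sct was at 97 and 120 CPM in the E12.5 pools (the summed cells of a library at a stage), at 229 and 188 CPM at E13.5 and at 279 to 467 CPM at E14.5. Dusp9 was at 117 and 128 CPM, then 329 and 210 CPM, then 252 to 346 CPM. Both E13.5 pools lay above both E12.5 pools for each gene, and the 2 genes parted only against E14.5, where Sct was higher in all 4 pools and Dusp9 overlapped.

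Gata2 was at 124 and 168 CPM at E12.5, at 308 and 176 CPM at E13.5 and at 212 to 291 CPM at E14.5. Dapl1 was at 45 and 42.3 CPM, then 82.9 and 48.1 CPM, then 24.4 to 121 CPM. All 4 markers had E13.5 pools above the E12.5 pools, as did 19% of all tested genes. The nearest pools were close for Gata2 (176 against 168 CPM) and for Dapl1 (48.1 against 45 CPM). Against E14.5 the pools of Sct were lower at E13.5 and those of Dusp9, Gata2 and Dapl1 overlapped. At E16.5 to E18.5 Sct was at 0.376 to 10.2 CPM. The label of the stage comes from the cell names, not from these genes.

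**Figure D1:**
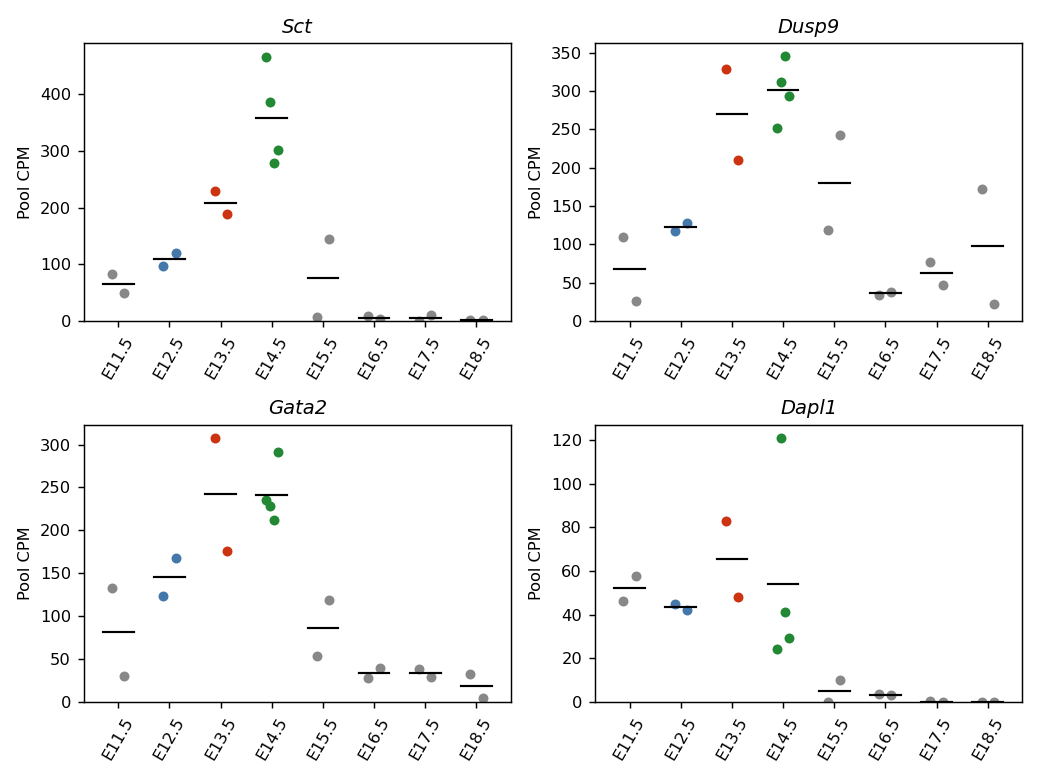
CPM of the 4 marker genes in the 18 pools of BVSC-gate cells by stage. Each point is a pool (red for E13.5, blue for E12.5, green for E14.5, grey for other stages) and the bar is the stage mean. Sct, Dusp9 and Gata2 are higher in the E13.5 pools than in the E12.5 pools and stay high at E14.5.

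Upstream sequences of Stra8 and Sct are shown because both genes had higher pools at each later stage of the 3, without overlap. RefSeq promoter windows (GRCm38.p6, 250 bases before the start) were searched on both strands for 4 motifs of 6 letters, which do not overlap in the matches shown. AGGTCA is the hexamer bound by nuclear receptors, retinoic acid receptors among them. GGCGCC is the core of BMP response elements. CACGTG is an E-box, bound by helix-loop-helix factors. TATAAA is a TATA box. The Stra8 window (chr6:34920698-34920947, plus strand) held AGGTCA at 2 places and GGCGCC at 1. This window is also part of an exon in the GENCODE annotation, so only 30 bases around each match are printed, with the match in capitals.

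Stra8 AGGTCA, 194 bases before the start (chr6:34920742-34920771): gatggggtgaaaAGGTCAtcttgctccttc
Stra8 GGCGCC, 112 bases before the start (chr6:34920824-34920853): acgctccccattGGCGCCccaccatgcatc
Stra8 AGGTCA, 38 bases before the start (chr6:34920898-34920927): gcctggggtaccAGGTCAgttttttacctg

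The Sct window (chr7:141279134-141279383, minus strand, printed 5′ to 3′ along the gene) held 3 matches, in capitals. The BMP core GGCGCC lay 172 bases before the start. The nuclear receptor hexamer lay 114 bases before it and reads TGACCT here because it is on the other strand. The TATA box lay 28 bases before it.

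Sct promoter: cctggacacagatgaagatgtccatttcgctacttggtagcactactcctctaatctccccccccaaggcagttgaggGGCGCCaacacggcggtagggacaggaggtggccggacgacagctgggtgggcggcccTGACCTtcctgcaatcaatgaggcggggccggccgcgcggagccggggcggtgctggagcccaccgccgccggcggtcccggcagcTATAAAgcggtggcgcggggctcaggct

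Among 32851 RefSeq promoter windows of the same length, 14% held AGGTCA, 9.59% GGCGCC, 6.02% CACGTG and 12.4% TATAAA, so each match alone is common. CACGTG was found in neither window. For Gata2, the window at the annotated GENCODE start (chr6:88193641-88193890) held none of the 4 motifs, and a second RefSeq window (chr6:88198414-88198663), inside annotated exon sequence, held GGCGCC 38 bases before its start. A match describes letters in the window and nothing else.

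Stra8 levels varied widely among the E13.5 cells and differed between their 2 libraries. The E12.5 pools held 55 and 160 Stra8 UMIs in all, 10.8 CPM ± 9.41 (SD, n = 2), at E13.5 they held 440 (library 3) and 172 CPM (library 10), and at E14.5 they held 1669, 1133, 1265 and 1195 CPM. The groups did not overlap. Of all tested genes, 19% had E13.5 pools above both E12.5 pools, and 11.9% had E14.5 pools above both E13.5 pools. The log2 fold change was 4.70 ± 0.98 (SE) from E12.5 to E13.5 and 2.12 ± 0.80 from E13.5 to E14.5, and neither passed the test over all genes (edgeR adjusted p = 0.0728 and 0.219). The first step did pass in 4 of 18 other settings, among them the fit without library 10 and the fit of only the 3 stages.

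Counted by cell, Stra8 at 100 CPM or more was found in 2 and 4 of 70 cells in the E12.5 libraries. At E13.5 it was found in 40 of 58 cells of library 3 (69%, exact 95% binomial interval 55.5 to 80.5) and in 21 of 89 cells of library 10 (23.6%, 15.2 to 33.8). At E14.5 it was found in 31 of 31, 55 of 60, 93 of 93 and 91 of 91 cells. Over libraries, the mean share was 4.29% ± 2.02 (SD, n = 2) at E12.5, 46.3% ± 32.1 (n = 2) at E13.5 and 97.9% ± 4.17 (n = 4) at E14.5. A two-sided exact permutation test over libraries gave p = 0.333 for E13.5 against E12.5 and p = 0.133 for E14.5 against E13.5, which are the smallest p-values that 2 against 2 and 4 against 2 libraries allow. Libraries 4, 5 and 12 of E14.5 share the replicate label R1 and only library 14 has R2, so these 4 may be fewer than 4 independent samples.

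The E13.5 libraries lay between the neighbouring stages and differed from each other. The median Stra8 level per cell was 256 CPM (6.27 to 1915) in library 3 and 22.3 CPM (0 to 1483) in library 10, against 0 in both E12.5 libraries and 1013 to 1940 CPM in the E14.5 libraries. All 58 cells of library 3 and 74 of 89 cells of library 10 (83.1%) held at least 1 Stra8 UMI, but so did 27 of 31 Negative-gate cells of library 3 (87.1%), at a median of 25.3 CPM. Median depth over the genes read was 158928.5 UMIs in the members of library 3 and 81305 UMIs in those Negative-gate cells. After each cell was thinned to 20000 UMIs, 43 of 57 members of library 3 (75.4%) and 17 of 29 Negative-gate cells (58.6%) held a Stra8 UMI. Those Negative-gate cells are no clean blank, since 30 of 31 also held a Dppa3 UMI, at a median of 175 CPM. The level of 100 CPM of Stra8 was reached by 3 of the 31. Thinned members reached it in 68.4% of library 3 and 27.1% of library 10.

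**Figure D2:**
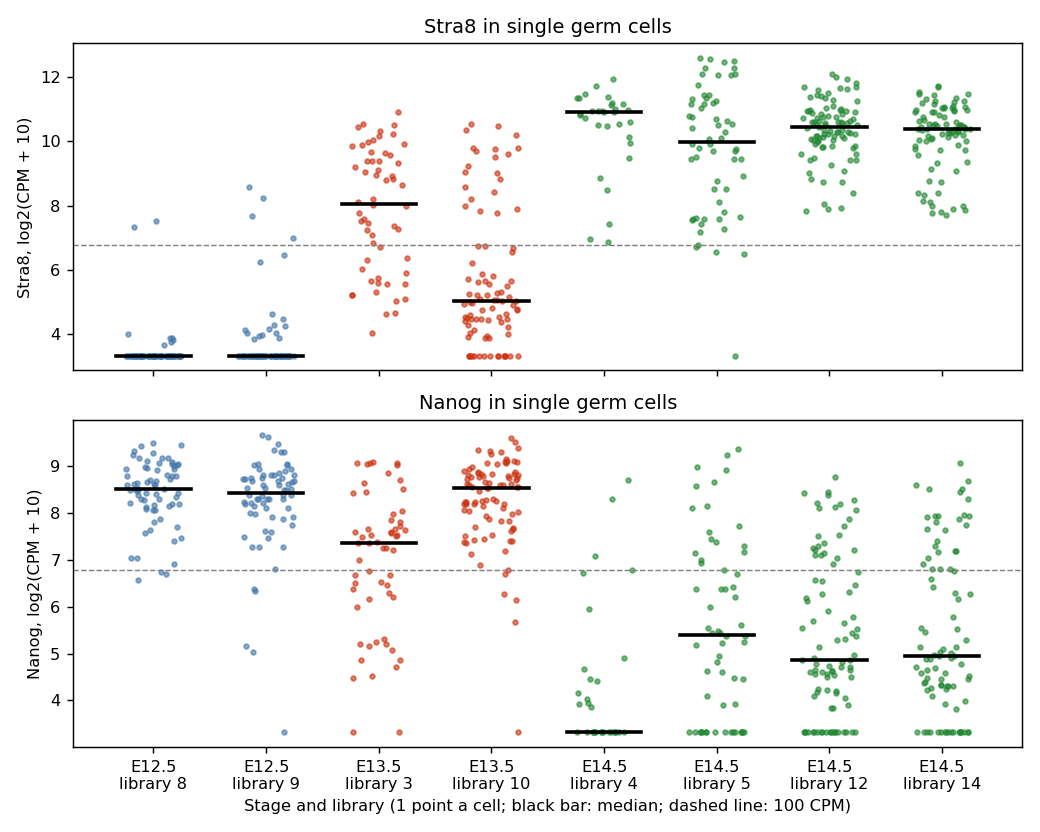
Stra8 (top) and Nanog (bottom) in each germ cell of E12.5 (blue), E13.5 (red) and E14.5 (green), by library, as log2(CPM + 10). Black bars are medians and the dashed line is 100 CPM: 40 of 58 cells of library 3 and 21 of 89 cells of library 10 lie at or above it for Stra8.

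No gene of the retinoic acid response and of meiotic initiation passed the test into E13.5. Gm4969, the partner of STRA8, was at 1.81 and 0.109 CPM at E12.5, 9.94 and 1.89 CPM at E13.5 and 28.3 to 75.6 CPM at E14.5. It was detected in 23 of 58 and 11 of 89 members, and it rose from E13.5 to E14.5 (log2 fold change 3.06 ± 0.75, edgeR adjusted p = 0.0433). That call was lost in 7 of 18 other settings. Rdh10, an enzyme of retinoic acid synthesis, was at 9.19 and 20.3 CPM, then 35.3 and 24.1 CPM. Cyp26b1, which degrades retinoic acid, was at 5.45 and 0.71 CPM at E13.5. Crabp2, which carries retinoic acid in the cell, was at 69.5 and 55.3 CPM at E12.5, 91 and 61.2 CPM at E13.5 and 102 to 183 CPM at E14.5, with pools that overlapped in the first step. Of the 11 genes of this list that were measured (21 were listed), none passed the test between E12.5 and E13.5, where 0.12% of all 9997 tested genes did. The E13.5 pools lay above the E12.5 pools for 8 of the 11, against 19% of all genes, and the median log2 fold change was 1.35, against 0.0 over all genes.

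No BMP signalling gene passed the test around E13.5. Id1, a direct BMP target, was at 361 and 383 CPM at E12.5, 474 and 458 CPM at E13.5 and 430 to 577 CPM at E14.5 (log2 fold change 0.25 ± 0.35 from E12.5, edgeR adjusted p = 1). Msx1, a homeobox target of BMP, was at 71.3 and 88.3 CPM, then 156 and 85.9 CPM, then 201 to 345 CPM. No gene among the 12 tested passed between E12.5 and E13.5 or between E13.5 and E14.5, where 0.12% and 1.41% of all genes did. The median log2 fold changes were 0.18 and -0.06, against 0.0 and 0.03 over all genes. Hey1, a Notch and BMP target, was at 206 and 173 CPM at E12.5, 84.8 and 156 CPM at E13.5 and 21.5 to 68.2 CPM at E14.5, with pools that did not overlap (E13.5 to E14.5: -1.74 ± 0.58, edgeR adjusted p = 0.15).

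Genes of the synaptonemal complex, the protein zipper between paired chromosomes, were present at E13.5 and rose after it. Sycp1, the transverse filament protein, was at 132 and 125 CPM at E12.5, 311 and 274 CPM at E13.5 and 950 to 1142 CPM at E14.5. Its step to E14.5 passed the test (log2 fold change 1.81 ± 0.24, edgeR adjusted p = 0.00042), and its step from E12.5 did not (1.10 ± 0.25, adjusted p = 0.144). Sycp1 was detected in 55 of 58 and 86 of 89 members. Most E12.5 cells held it too. Among those below 100 CPM of Stra8, it was found in 58 of 68 cells of library 8 and 56 of 66 cells of library 9.

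Sycp3, an axis protein, did not follow Sycp1 at E13.5. It was at 18.9 and 21.9 CPM at E12.5, 24.8 and 7.65 CPM at E13.5 and 101 to 259 CPM at E14.5, a log2 rise of 3.48 ± 0.42 (edgeR adjusted p = 0.00022). Only 27 of 58 and 20 of 89 members held a Sycp3 UMI. Sycp2 (2.85 ± 0.53) and Syce1 (1.40 ± 0.24), further parts of axis and central element, also rose from E13.5 to E14.5 (edgeR adjusted p = 0.00614 and 0.00367). Of the 7 measured genes of this list, 4 rose in that step and none fell, where 1.26% of all genes rose. The calls of Sycp1 and Sycp3 held in all 18 other settings, and those of Sycp2 and Syce1 in 17.

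Of 13 measured recombination and telomere genes, 4 rose from E13.5 to E14.5, where 1.26% of all genes did. Rnf212, which marks crossover sites, was at 6.12 and 0.0789 CPM at E13.5 and 27.3 to 82.5 CPM at E14.5 (log2 fold change 4.21 ± 0.75, edgeR adjusted p = 0.00436). Terb2, which attaches telomeres to the nuclear envelope, was at 30.2 and 9.07 CPM, then 72.6 to 111 CPM (2.33 ± 0.42, adjusted p = 0.00436). M1ap rose by 1.58 ± 0.27 and Hfm1, a helicase for crossovers, by 1.59 ± 0.38 (edgeR adjusted p = 0.00372 and 0.04). The call of Hfm1 was lost in 7 of 18 other settings, among them the replicate block and the omission of library 3, 4, 10, 12 or 14. None of the 13 passed the test between E12.5 and E13.5, where 0.12% of all genes did.

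Of 9 measured germ cell identity genes none passed the test into E13.5 (0.12% of all genes did), and Tex101, Taf7l and Sycp3 rose into E14.5 (1.26%). Their median log2 fold changes were -0.09 and 0.17, against 0.0 and 0.03 over all genes. Mael, a guard against transposons, was at 256 and 197 CPM at E12.5, 701 and 572 CPM at E13.5 and 664 to 839 CPM at E14.5. Its difference from E12.5 was 1.41 ± 0.28 on the log2 scale and just missed the threshold (edgeR adjusted p = 0.0508). Tex101 is a germ cell surface protein and Taf7l a germ cell variant of a general transcription factor. Tex101 was at 111 and 42 CPM at E13.5 and 480 to 739 CPM at E14.5 (3.06 ± 0.59, edgeR adjusted p = 0.00792). Taf7l was at 58.3 and 11 CPM and then 293 to 597 CPM (3.87 ± 0.55, adjusted p = 0.001). Figla, an oocyte gene from another list and the transcription factor that later turns on zona pellucida genes, was at 24.5 and 3.79 CPM and then 95.5 to 235 CPM (3.66 ± 0.56, adjusted p = 0.00164). In each of these 3 genes library 3 was above library 10.

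**Figure D3:**
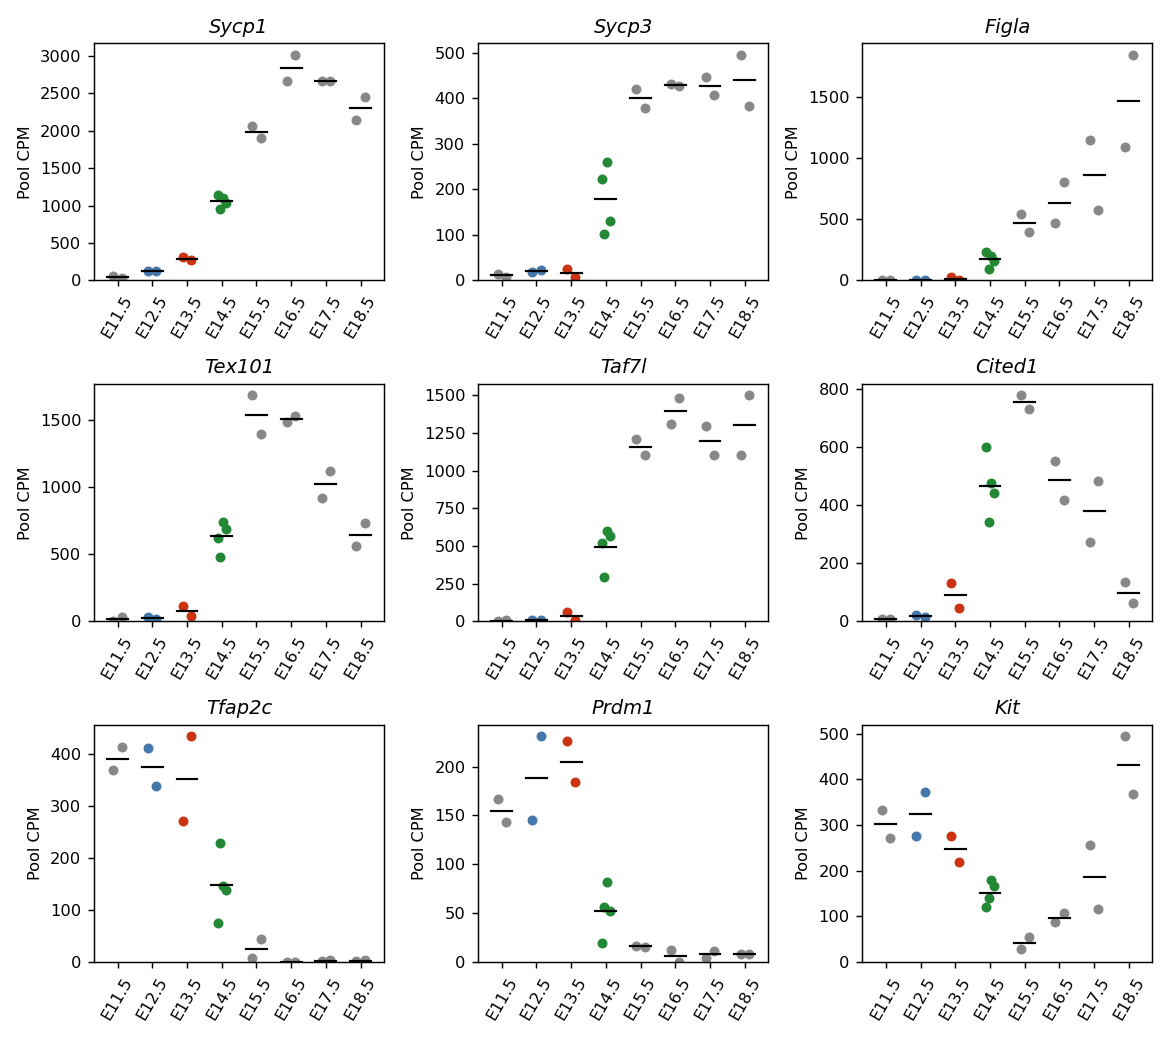
CPM of meiotic, oocyte and primordial germ cell genes in the 18 BVSC-gate pools by stage, with bars at the stage mean and E13.5 in red. Sycp3, Figla, Tex101 and Taf7l are low in both E13.5 pools and higher in all 4 E14.5 pools, while Tfap2c and Prdm1 have the opposite pattern.

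The pluripotency-related genes were still on at E13.5. Nanog was at 386 and 354 CPM at E12.5, 193 (library 3) and 368 CPM (library 10) at E13.5, and 45.1 to 137 CPM at E14.5. Tfap2c was at 412 and 339 CPM, then 271 and 434 CPM, then 74.7 to 229 CPM. Prdm1 was at 145 and 231 CPM, then 226 and 184 CPM, then 19.6 to 81.9 CPM. The E13.5 and E14.5 pools did not overlap for any of the 3, and the E13.5 and E12.5 pools did for all of them.

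None of the 17 measured pluripotency genes passed the test in either step, where 0.12% and 1.41% of all genes did. From E13.5 to E14.5, 16 of 17 had a log2 fold change below 0, 11 had pools that did not overlap in that direction (12.4% of all genes did), and the median was -0.96, against 0.03 over all genes. Nanog (-1.72 ± 0.74, edgeR adjusted p = 0.291), Tfap2c (-1.33 ± 0.49, 0.199) and Prdm1 (-2.01 ± 0.59, 0.0989) had values of that size. Lin28b, an inhibitor of let-7 maturation, was the exception, at 50.1 and 31.3 CPM and then 65.6 to 87.6 CPM. From E12.5 to E13.5 the median was -0.25, against 0.0 over all genes, and L1td1 was at 441 and 442 CPM and then 186 and 294 CPM. Kit, the receptor of stem cell factor, was at 276 and 372 CPM at E12.5, 276 and 220 CPM at E13.5 and 121 to 180 CPM at E14.5.

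Within the stage, cells with more Stra8 held less of the pluripotency programme in library 3, and the relation was weaker in library 10. Spearman's rho between Stra8 and the summed pluripotency list was -0.62 over the 58 cells of library 3 and -0.23 over the 89 cells of library 10. For Nanog alone it was -0.47 and -0.10. With the synaptonemal list rho was 0.46 and 0.55, with the recombination list 0.38 and 0.37, and with the total UMIs of the cell -0.01 and 0.09. Cells of a library share preparation and free RNA, and these values are descriptions over cells. In library 3 Stra8 also differed by a letter of the cell names, described below, and rho was not taken within letters.

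Cells at 100 CPM of Stra8 or more still held Nanog. In library 3 the median of Nanog was 94.8 CPM in the 40 cells at or above that level and 344 CPM in the 18 cells below it, and in library 10 it was 272 CPM in 21 cells and 376 CPM in 68. Nanog itself was at 100 CPM or more in 19 of those 40 cells and in 20 of those 21. Sycp1 had the opposite order, with medians of 274 against 133 CPM in library 3 and 428 against 148 CPM in library 10. Ccnd1, a G1 cyclin, had medians of 58.8 against 13.9 CPM and 71.3 against 6.53 CPM. The split is a chosen level and does not define a cell type: 12 members of library 3 and 5 of library 10 lay between 50 and 200 CPM of Stra8. Whether the cells of a library form a range or separate groups was not tested. Dppa3 hardly differed (1411 against 1402 CPM, and 1592 against 1763 CPM).

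**Figure D4:**
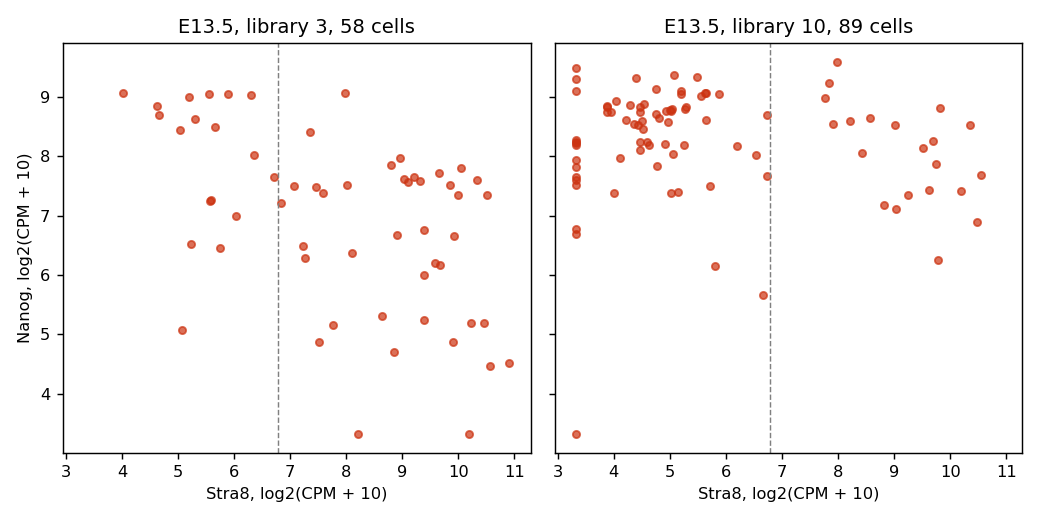
Nanog against Stra8 in single E13.5 germ cells of library 3 (58 cells) and library 10 (89 cells), both as log2(CPM + 10), with a dashed line at 100 CPM of Stra8. Cells with more Stra8 have less Nanog in library 3 (rho -0.47), and the relation is weak in library 10 (rho -0.10).

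The genes most like Stra8 across single E13.5 cells were sought among 4468 genes seen in at least 50% of members, by the mean of rho over the 2 libraries. The highest were Abcb6 (rho 0.40 in library 3 and 0.56 in library 10), Maged1 (0.39 and 0.54), Syce1 (0.57 and 0.35) and Cited1 (0.59 and 0.32). They were followed by Tuba3b, Gm1673, Papss1, Ndufa1, Gpat2 and Tex101. With cells thinned to 20000 UMIs, rho was 0.25 and 0.35 for Abcb6, 0.46 and 0.44 for Maged1, 0.66 and 0.31 for Syce1, 0.52 and 0.28 for Cited1 and 0.10 and 0.30 for Tuba3b, so this order depends on depth. The lowest were Hmgn5, a nucleosome-binding protein (-0.58 and -0.40), Zfp296 (-0.62 and -0.27) and Snrpa1 (-0.40 and -0.47), and Apoe, Hey1 and Ybx1 were also among the 10 lowest. Most like Nanog were Mpp1 (0.47 and 0.43), Degs1 (0.57 and 0.28) and Mutyh (0.59 and 0.23), and Tfap2c (0.49 and 0.30) and L1td1 (0.47 and 0.31) were among the first 10.

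The cell names also hold a letter whose meaning the labels do not give, and Stra8 differed between letters in library 3. There the median of Stra8 was 472 CPM in the 29 cells with C and 124 CPM in the 29 cells with P, at median UMI totals of 266043 and 489192. In library 10 the medians were 17.1, 26.2 and 27.9 CPM in 31 cells with C, 32 with D and 26 with P. Library 3 was above library 10 for each letter they share.

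Between E12.5 and E13.5, 12 of 9997 tested genes differed, 9 higher and 3 lower at E13.5 (0.12%; 5.17% had an unadjusted p below 0.05). DESeq2 gave 61 higher and 9 lower, and the fit with no filter on low counts 76 and 15. Cited1, a transcriptional coactivator on chromosome X (X:102247381-102252181, GRCm38), had the most counts of them. It was at 22.4 and 13.2 CPM at E12.5, 132 and 45.9 CPM at E13.5 and 341 to 598 CPM at E14.5, and it rose in both steps (log2 fold change 2.18 ± 0.40 with edgeR adjusted p = 0.0285, then 2.41 with adjusted p = 0.00164). It was detected in 53 of 58 and 54 of 89 members.

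Ccnb3, a B-type cyclin of meiotic cells (X:6979652-7041619), had 0 UMIs in all 140 cells of E12.5 and 257 and 34 UMIs in the E13.5 libraries, in 12 and 5 cells. That is at least 94.1-fold higher, against a floor of 3 UMIs over the E12.5 cells (edgeR adjusted p = 0.0165). A single cell held 94 of the 257 UMIs, and 4 of 31 Negative-gate cells of library 3 (12.9%) held 1 UMI each, against 20.7% of its members. The pools reached 24.6 and 2.68 CPM, and then 43.1 to 72.3 CPM at E14.5. Henmt1, which methylates the 3′ ends of piRNAs, likewise had 0 UMIs at E12.5 and 47 and 9 UMIs at E13.5, in 5 and 2 cells, at least 18.1-fold more (adjusted p = 0.0332).

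Pnck, a calmodulin-dependent kinase, was at 3.69 and 3.93 CPM at E12.5 and 37.6 and 25.2 CPM at E13.5 (log2 fold change 2.94 ± 0.49, edgeR adjusted p = 0.0202). Zfp711, a zinc finger protein of the X chromosome, was at 0.301 and 1.31 CPM and then 36 and 5.21 CPM, in 32 of 58 and 16 of 89 members (4.56 ± 0.80, adjusted p = 0.0202). Ccdc136, a coiled-coil protein, was at 4.29 and 2.73 CPM and then 50.1 and 12.1 CPM (2.97 ± 0.51, adjusted p = 0.0202). B3galnt1, a glycolipid galactosaminyltransferase, was at 7.16 and 11.3 CPM and then 57.6 and 34.3 CPM (2.20 ± 0.42, adjusted p = 0.0332). Fam90a1b and the receptor kinase Grk4 had 1 UMI each at E12.5 and 118 and 75 UMIs at E13.5, ratios of 114 and 72.7 with exact Poisson intervals of 20.1 to 4559 and 12.7 to 2911. At E14.5 Henmt1 was at 3.87 to 8.59 CPM and B3galnt1 at 35.8 to 63.1 CPM, so both overlapped with E13.5.

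The 3 genes lower at E13.5 rested on few cells. Gm364 had 67 UMIs in 13 of the 140 cells of E12.5 and none at E13.5, and Abca16, of the ABC transporter family, had 42 UMIs in 11 cells and none. Gm14692 had 78 UMIs in 7 cells at E12.5, 39 of them in 1 cell, and 2 UMIs at E13.5. All 12 calls were lost when the pools were thinned to equal depth and without library 8. The 2 counts were 3 and 0 genes without library 3, 3 and 2 without library 9, 33 and 2 without library 10, 6 and 1 without library 12, 7 and 1 without library 14 and 13 and 5 without library 5.

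**Figure D5:**
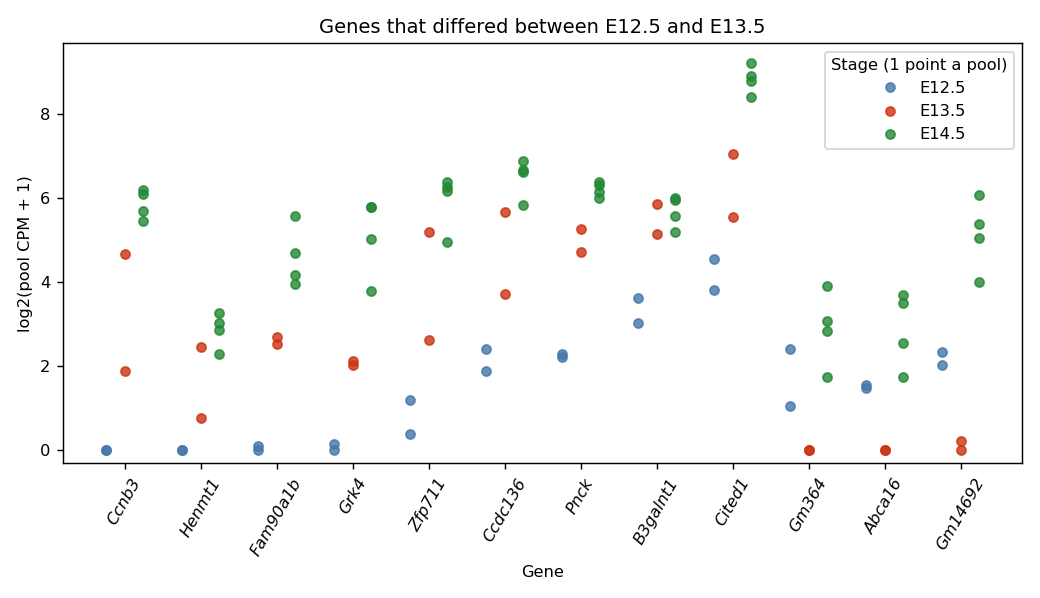
The 12 genes that passed the test between E12.5 and E13.5, as log2(CPM + 1) of each pool of E12.5 (blue), E13.5 (red) and E14.5 (green). The E13.5 pools lie above the E12.5 pools for the first 9 genes and below them for Gm364, Abca16 and Gm14692, and these 3 are higher again at E14.5.

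Between E13.5 and E14.5, 141 of 9997 genes differed, 126 higher and 15 lower at E14.5 (1.41%). Of the 10 genes with the highest folds among those whose pools did not overlap, 9 had no UMI in the 147 members, and Gm14692 had 2. Slc16a7, a monocarboxylate transporter, was at 0 in both E13.5 pools and at 8.83 to 18.7 CPM at E14.5, at least 103-fold higher (edgeR adjusted p = 0.00936). Gm35911, Dpyd, an enzyme of pyrimidine breakdown, and Kbtbd8os were at least 78.9-, 52- and 43.5-fold higher, and Gm4763, Spdye4b and Gm43666 at least 58.1-, 43.3- and 39.5-fold. Gm364 and Abca16 returned in this step, at least 52.6- and 58.5-fold higher, and their calls held in all 18 other settings. Slc16a7 was at 0.0753 and 2.62 CPM at E12.5.

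The genes lower at E14.5 included several with high levels at E12.5 too. Platr10, a long noncoding RNA of pluripotent cells (3:75647446-75655731), was at 83.1 and 41.8 CPM at E12.5, 12.1 and 33 CPM at E13.5 and 0.228 to 3.45 CPM at E14.5 (log2 fold change -3.58 ± 0.79, edgeR adjusted p = 0.0239). Socs2, an inhibitor of cytokine signalling, was at 573 and 574 CPM, then 383 and 596 CPM, then 182 to 309 CPM (-1.24 ± 0.30, adjusted p = 0.04). Degs1, a desaturase of ceramide synthesis, fell by 1.21 on the log2 scale and Cdc42ep5, an effector of CDC42, by 2.01 (adjusted p = 0.0228 and 0.0209). Gm8817 had 109 UMIs at E13.5 and none in 275 cells of E14.5, at least 61.3-fold lower (adjusted p = 0.0379). 6330410L21Rik is antisense to Egf, from which it cannot be told apart where counting ignores strand.

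Prmt1 and Arpc3, 2 of the 15, had their highest pools at E13.5. Prmt1, a protein arginine methyltransferase, was at 208 and 148 CPM at E12.5, 247 and 445 CPM at E13.5 and 46.7 to 94.2 CPM at E14.5 (-2.30 ± 0.45, edgeR adjusted p = 0.00965). Arpc3, a subunit of the actin-nucleating ARP2/3 complex, was at 82.7 and 73.9 CPM, then 166 and 155 CPM, then 10.9 to 48.7 CPM (-2.23 ± 0.44, adjusted p = 0.00897). Arpc3 was found in 54 of 58 and 85 of 89 members. Without library 10 no gene was lower and 27 were higher at E14.5, and the calls of Prmt1 and Arpc3 were lost with it. The counts were 111 and 29 without library 3, 78 and 2 without library 4, 167 and 43 without library 5, 89 and 2 without library 12 and 100 and 7 without library 14.

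A gene particular to E13.5 would differ from both neighbours in the same direction. Set against the mean of E12.5 and E14.5, no gene was higher at E13.5 by edgeR at an adjusted p below 0.05, and none by DESeq2, although 380 of 9997 genes (3.8%) had an unadjusted p below 0.05 in either direction. The 4 genes that were lower (0.04%) were Gm364, Abca16, Gm14692 and Gm1140. Gm14692 (X:67695698-67706350) and Gm1140 (X:67682900-67693562) lie side by side on opposite strands without overlap. They had nearly the same counts, 1399 and 1406 UMIs at E14.5, and whether they share reads was not tested. Without library 10 the counts were 1 higher and 2 lower, and without library 8 there were 6 lower. With no filter on low counts 19 genes were higher and 23 lower, and DESeq2 gave 17 lower. By pools alone, 2.69% of genes lay above and 1.43% below both neighbouring stages.

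Cell cycle genes gave no call into E13.5 beside Ccnb3. Of 17 replication genes and 19 genes of G2 and mitosis, none passed the test between E12.5 and E13.5, where 0.12% of all genes did, and the median log2 fold changes were -0.03 and -0.12, against 0.0 over all genes. From E13.5 to E14.5, 14 of the 17 and 16 of the 19 had a log2 fold change below 0, with medians of -0.31 and -0.36 against 0.03 over all genes. The E14.5 pools lay below the E13.5 pools for 8 and 7 of them, against 12.4% of all genes, and none passed the test in that direction. Mki67, a proliferation marker, was at 362 and 543 CPM at E12.5 and 589 and 350 CPM at E13.5, and its median was 620 CPM in cells of library 3 with Stra8 at 100 CPM or more and 571 CPM in those below, and 402 and 312 CPM in library 10. Into E14.5, Ccne2, an S phase cyclin, rose from 53.7 and 42.8 CPM to 144 to 228 CPM (1.94 ± 0.32, edgeR adjusted p = 0.00294). Mcm10, a replication factor, was at 163 and 185 CPM and then 70.3 to 89.5 CPM (-1.15 ± 0.29, adjusted p = 0.0518), and Cdk4, the kinase of D cyclins, at 591 and 739 CPM and then 284 to 469 CPM (-1.0 ± 0.29, adjusted p = 0.0989). Ccnd1 was at 12.8 and 25.6 CPM at E12.5, 90.5 and 51.1 CPM at E13.5 and 170 to 226 CPM at E14.5, and neither step passed the test.

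None of the listed metabolic genes passed the test in either step, where 0.12% and 1.41% of all genes did. Of 14 glycolysis genes, 12 had a log2 fold change below 0 from E12.5 to E13.5 and 13 from E13.5 to E14.5, with medians of -0.27 and -0.60, against 0.0 and 0.03 over all genes. In the second step 7 of the 14 had E14.5 pools below both E13.5 pools, against 12.4% of all genes. Pdk1, which keeps pyruvate from the mitochondria, was at 320 and 269 CPM, then 191 and 235 CPM, then 91.3 to 124 CPM. The 12 respiratory chain genes had medians of -0.12 and 0.06, with no call.

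Among genes of the epigenome, Tet3, a methylcytosine oxidase, was at 0.527 and 0.327 CPM at E12.5, 15.6 and 2.76 CPM at E13.5 and 9.34 to 12.7 CPM at E14.5 (log2 fold change 4.18 ± 0.84, edgeR adjusted p = 0.0519), while Tet1 was at 603 and 709 CPM, then 493 and 438 CPM. Dnmt3l, a cofactor of new DNA methylation, had no UMI in the members. Kcnq1ot1, the noncoding RNA of an imprinted cluster, was at 134 and 212 CPM at E12.5, 94.9 and 63.6 CPM at E13.5 and 135 to 290 CPM at E14.5 (1.53 ± 0.40 in the second step, adjusted p = 0.0638). The 6 Nodal pathway and testis-type genes summed to 77.3 and 77.1 CPM at E12.5, 31 and 76.8 CPM at E13.5 and 0 to 24.2 CPM at E14.5. Of them Nanos2, a repressor of meiosis in male germ cells, had 0.191 and 0 CPM at E13.5, and Nodal, a growth factor, was at 19.3 and 28.4 CPM and then at 0 to 5.48 CPM. Of 9 measured piRNA pathway genes only Henmt1 passed the test into E13.5 and none into E14.5, and of 17 imprinted and 9 apoptosis genes none passed in either step. With 0.12% and 1.41% of all genes called in the 2 steps, lists of this size would mostly hold no call, and nothing is read from these counts.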

How the data were processed

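Raw UMI counts per gene and cell were deposited by the authors, with a cell table of stage, gate, replicate, library and UMI total. The submitters' processing notes name CASAVA 1.8, UMI-tools, STAR, featureCounts, Subread and build mm10. Their roles, the annotation, the strand setting and filters were not stated. The members and gene lists were chosen with earlier results of these data known. Members' counts were summed per library and stage into 18 pools of at least 5 cells (E11.5 to E18.5), and 2342743 to 14048285 UMIs were read per pool. All pools entered 1 fit with a mean per stage: edgeR 4.0.16 quasi-likelihood test (R 4.3.3), TMM scaling, filterByExpr, Benjamini-Hochberg adjustment over 9997 genes at 0.05. SEs were derived from each log2 fold change and its F statistic (|log2 fold change| over root F). Named genes were list members, the stage markers and, per comparison, up to 10 called genes of largest fold in each direction whose pools did not overlap. Shares of cells have exact 95% binomial intervals, and intervals and floors of 3 UMIs cover counting error only. Cells were thinned to 20000 UMIs for shares. DESeq2 1.42.0, other scalings, filters, Anxa5 limits, thinned pools, a replicate block and omission of each library were alternatives. The fit was also run on simulated counts with the same spread for every gene, which does not cover calls that rest on few cells. Positions are from GENCODE for GRCm38, where 16252 genes matched by symbol, and 1 incomplete table line was dropped. Cells of 546 columns were not used. Doublets were not called, as cells were picked singly by hand.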

Additional observations from a re-analysis of the deposited data

Results flagged for a closer look

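Of 67 named genes checked over the 4 E14.5 pools, 3 were flagged for 1 pool apart from the others. That is about what chance gives at 1 in 20 for normally distributed values. Socs2 was at 309 CPM in library 5 and at 182 to 190 CPM in the other pools. Gm4763 was at 14.8 CPM in library 14 and at 3.42 to 4.06 CPM elsewhere. 6330410L21Rik was at 0.153 CPM in library 14 and at 0 elsewhere, and a gene seen in only 1 pool is flagged at any level. The stages E12.5 and E13.5, with 2 libraries each, were too small for this check.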

How the results depend on the processing

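Counts of called genes depended on the setting, and 2 libraries at E13.5 limit all of them. In the order higher and lower, DESeq2 gave 61 and 9 genes for E13.5 against E12.5, 413 and 94 for E14.5 against E13.5, and 17 lower against the mean of both. With no filter on low counts there were 76 and 15, 331 and 140, and 19 and 23. With only the 3 stages in the fit there were 17 and 1, 244 and 185, and 1 and 2. With pools thinned to equal depth there were 0 and 0 for the first comparison and 1 lower for the third. R1 and R2 of the cell table do not pair the samples (28 correlations, -0.137 to 0.113), and the replicate block gave 1 lower gene for the first and 7 lower for the second comparison. Pools summed by replicate label gave 1 lower for the second. Each of these 2 settings lost 12 of the 50 single-gene calls, which include genes that were higher. Of the 9 genes higher in the first comparison, the replicate block lost only Henmt1 and B3galnt1. Pools summed by replicate label lost only Henmt1 of them. Leaving out each library in turn gave 0 to 33 higher and 0 to 5 lower, 27 to 167 higher and 0 to 43 lower, and 0 to 1 higher and 2 to 6 lower; without an E13.5 library the lone pool is assumed to vary like the others. Of 50 single-gene calls, 10 held in all 18 alternatives, 9 of them for E14.5 against E13.5. None of 77 single-gene log2 fold changes reversed. Shares of Stra8 cells and the rho of Stra8 with Nanog and Sycp1 moved by less than the spread between the libraries, while rho of some genes most like Stra8 moved by more. That spread is the SD of 2 libraries, 32.1 percentage points for the share, so this check is weak. In library 10 the rho of Stra8 and Nanog was -0.10 in all cells and -0.21 in thinned cells. The causes were not tested.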

Other observations

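Genes of the X chromosome made up a larger share of the called genes than of the tested genes, in both directions. They were 7.02% of the tested genes. Of the 9 genes higher at E13.5 than at E12.5 they were 5 (55.6%), and of the 3 lower they were 2 (66.7%). Of the 126 genes higher at E14.5 than at E13.5 they were 28 (22.2%), and of the 15 lower they were 2 (13.3%). The 5 were Ccnb3, Cited1, Fam90a1b, Pnck and Zfp711, and their calls were lost when the pools were thinned to equal depth. Among the 28 were Taf7l, Rhox13, a homeobox gene of germ cells, and Xlr4a, Xlr4b and Xlr4c. Xlr4a was at 85.2 and 56.5 CPM at E12.5, 156 and 61.9 CPM at E13.5 and 307 to 565 CPM at E14.5, but the Xlr copies are similar enough that their reads may be shared. Rhox13 was at 33.7 and 44.1 CPM at E13.5 and 135 to 296 CPM at E14.5. Over all 702 tested X genes the median log2 fold change was 0.06 in the first step and 0.21 in the second, against 0.00 and 0.03 over all genes. These counts were noticed after the calls were seen and no test of them was made.

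The 2 E13.5 libraries differed in genes that were higher at E14.5. Most of those printed here with levels in both libraries were higher in library 3, but not all. Dmrtc2, a DM-domain gene, was at 56.2 CPM in library 3 and 16.2 CPM in library 10, and Sycp2 at 61.5 and 8.84 CPM, while Rhox13 was lower in library 3. Wt1 was also higher in library 3, at 22.4 against 2.6 CPM, and the part of that in these differences was not tested.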
